A study of Homo sapiens with 18 samples.

Results

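Zinc finger genes of human chromosome 19 were followed in newly made RNA of breast cancer cells treated with a degrader of BET proteins. The genes were protein-coding genes of chromosome 19 whose symbol is ZNF followed by digits alone. The annotation holds 241 of them, and 156 had values among the 12755 gene IDs of the deposited table. Of these 156 genes, 134 passed the filter on low values and were tested, among 10191 genes tested in all. The other 85 annotated genes had no row and were not analysed here, and 22 genes lay below the filter.

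Most of these genes encode proteins with long rows of C2H2 fingers, each a short fold held by a zinc ion that can read a few bases of DNA. Many also carry a KRAB domain, which binds the corepressor TRIM28 and through it the histone methyltransferase SETDB1, and many of the KRAB proteins silence transposable elements. The genes arose by tandem duplication and stand in rows along chromosome 19, where the gene bodies themselves are known to carry the heterochromatin mark that SETDB1 makes. BET proteins bind acetylated histones and promote the release of paused RNA polymerase II.

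The cells were MDA-MB-453, an established luminal breast cancer line that expresses the androgen receptor. They received either JQ1-VHL or the solvent DMSO for 3 hours. JQ1-VHL joins the BET ligand JQ1 to a ligand of the ubiquitin ligase VHL, and the sample titles call the drug dBET. All groups shared 0.1 mM 4-thiouridine in the medium for the last 60 min, a label that turns into T-to-C changes in reads of new RNA (SLAM-seq). Digitonin split the cells into nuclear and cytoplasmic RNA, unfractionated RNA gave the total, and 3 libraries were made for each of the 6 groups. The groups were JQ1-VHL nuclear, JQ1-VHL total, JQ1-VHL cytoplasmic, DMSO nuclear, DMSO total and DMSO cytoplasmic RNA. The libraries hold polyadenylated RNA of 1 cell line. Nothing in the labels ties replicates to separate cultures, so a p-value here reflects a spread that may be technical.

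Values are T-to-C reads divided by an ERCC factor per library, summed over the numbered intervals of a gene, and are called units. ERCC RNA was added per mass of RNA, so units do not count RNA per cell. In these bulk samples, fewer labelled cells and less RNA per cell cannot be told apart. Summed over intervals, the libraries held 1.58 to 6.77 M reads, and a tested gene of the family had a median of 8 to 160 reads per library. A fragment may be counted in several intervals, so these sums can exceed the true number of reads. Sums over all genes differed widely between replicates: they were 8.63, 1.80 and 18.7 M units in DMSO cytoplasmic RNA and 10.8, 2.78 and 3.31 M units in DMSO total RNA. JQ1-VHL nuclear replicate 3 was the shallowest library. All 10 luminal markers looked up, among them KRT8, ERBB2 and GATA3, were in the table. Of 8 markers of other cell types, COL1A1, HCLS1 and ALB were in the table and the other 5 were not analysed here. In total RNA COL1A1 averaged 502 units under JQ1-VHL and 483 under DMSO, HCLS1 averaged 75.1 units under JQ1-VHL and 2.15 under DMSO, and ALB 88.2 under JQ1-VHL and 28.6 under DMSO.

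A pair of the genes with large nuclear decreases, a gene whose new RNA was found in the nucleus and hardly in the cytoplasm, and the gene at the opposite end of the range are shown by the 250 bases before their transcription start (RefSeq, GRCh38.p14, given on the gene's strand). ZNF444 lies on the plus strand (chr19:56141037-56141286), as do ZNF175 (chr19:51571033-51571282) and ZNF302 (chr19:34677428-34677677), and ZNF850 lies on the minus strand (chr19:36772808-36773057). Capitals mark the ETS motif CCGGAAG on either strand. In GENCODE 29 (GRCh38) the gene bodies span chr19:56132599-56160893 for ZNF444, chr19:51571298-51592508 for ZNF175, chr19:34677639-34686397 for ZNF302 and chr19:36714383-36772825 for ZNF850.
ZNF444: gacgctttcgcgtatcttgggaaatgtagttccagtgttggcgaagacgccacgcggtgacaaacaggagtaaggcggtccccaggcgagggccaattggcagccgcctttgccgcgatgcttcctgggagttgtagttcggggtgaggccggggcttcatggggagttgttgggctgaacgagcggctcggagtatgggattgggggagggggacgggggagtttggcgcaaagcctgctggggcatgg
ZNF175: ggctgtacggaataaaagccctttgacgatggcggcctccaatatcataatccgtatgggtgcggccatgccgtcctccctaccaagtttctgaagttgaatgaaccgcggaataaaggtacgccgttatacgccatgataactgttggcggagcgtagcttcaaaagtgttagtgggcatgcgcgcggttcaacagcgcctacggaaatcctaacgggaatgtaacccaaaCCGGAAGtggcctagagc
ZNF302: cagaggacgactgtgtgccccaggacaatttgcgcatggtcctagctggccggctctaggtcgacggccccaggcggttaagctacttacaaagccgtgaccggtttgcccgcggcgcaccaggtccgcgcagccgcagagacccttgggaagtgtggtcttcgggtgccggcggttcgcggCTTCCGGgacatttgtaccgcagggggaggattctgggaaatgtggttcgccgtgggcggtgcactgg
ZNF850: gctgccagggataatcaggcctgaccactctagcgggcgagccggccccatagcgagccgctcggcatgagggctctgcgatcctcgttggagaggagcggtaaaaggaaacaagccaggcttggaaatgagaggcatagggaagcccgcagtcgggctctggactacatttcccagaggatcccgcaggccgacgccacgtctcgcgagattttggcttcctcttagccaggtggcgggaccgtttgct

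Promoters were matched for 122 of the 134 tested genes, in 154 windows from 250 bases before to 50 bases after a start. The ETS motif CCGGAAG, searched on both strands, occurred in 42.9% of these windows. It occurred in 32.7% of 165 windows of ZNF genes on other chromosomes and in 18.1% of 11318 windows of all tested protein-coding genes. The CCAAT box, searched as CCAAT, occurred in 44.8% of the family's windows and in 35.4% of all windows, and the TATA box, searched as TATAAA, in 2.60% and 5.58%. The GC box, searched as GGGCGG, occurred in 61.0% of the family's windows and 67.4% of all windows, and the E-box CACGTG in 5.19% and 9.52%. Motif matches are descriptions of letters. The sequences of ZNF175 and ZNF302 each held 1 ETS match, and those of ZNF444 and ZNF850 held 0.

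The zinc finger genes took a smaller share of all new RNA under the drug in each fraction. This share is the family's summed units over all units of the library, so the ERCC factor cancels. In nuclear RNA the family held 0.280, 0.290 and 0.211% in JQ1-VHL libraries, against 0.453, 0.391 and 0.435% in DMSO libraries. In total RNA it held 0.125, 0.106 and 0.111% in JQ1-VHL libraries, against 0.252, 0.257 and 0.270% in DMSO libraries. In cytoplasmic RNA it held 0.0657, 0.0615 and 0.0540% in JQ1-VHL libraries, against 0.162, 0.153 and 0.115% in DMSO libraries. The groups did not overlap in any fraction. The ratio of the mean shares was 0.610 in the nucleus, 0.440 in total RNA and 0.421 in the cytoplasm.

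**Figure D1:**
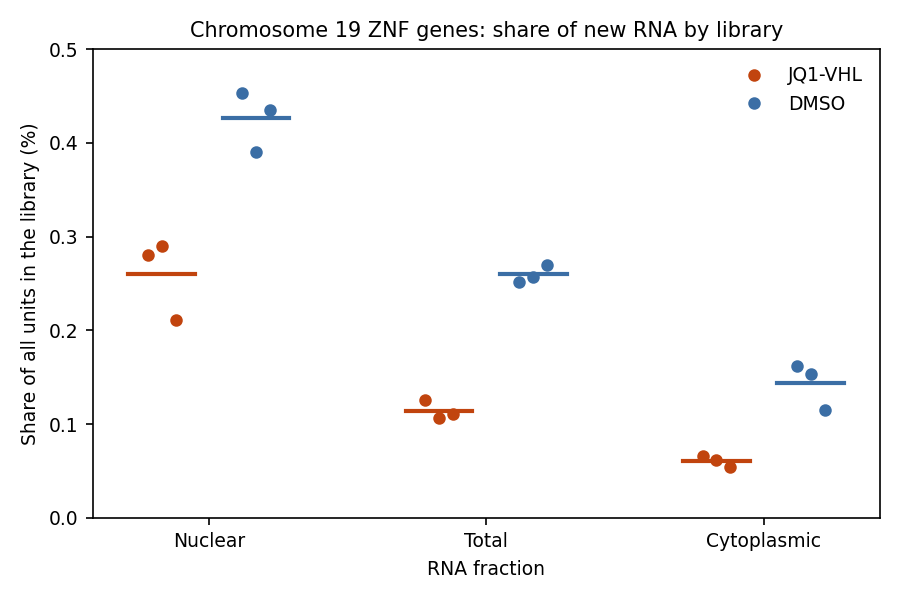
The share of all units of a library that fell on chromosome 19 ZNF genes (y axis, percent) is shown for nuclear, total and cytoplasmic RNA; points are single libraries and bars are means of 3. The JQ1-VHL points lie below all DMSO points in each fraction, with nuclear means of 0.260% for JQ1-VHL and 0.426% for DMSO.

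The lower share was not seen in the neighbours on the chromosome and was seen in the family elsewhere. Over the other protein-coding genes of chromosome 19 with values, 659 in number, the ratio of the mean shares was 0.997 in the nucleus, 1.07 in total RNA and 1.02 in the cytoplasm. Over 162 ZNF genes of other chromosomes it was 0.548, 0.511 and 0.669. The difference between the chromosome 19 genes and ZNF genes elsewhere was not tested.

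Gene by gene, the median log2 change (JQ1-VHL over DMSO) of the 134 genes was -2.01 in the nucleus, -1.23 in total RNA and -1.10 in the cytoplasm. Over all tested genes these medians were -1.82, -0.49 and -0.02. The ERCC scale therefore carries a general nuclear decrease, and the family's distance below all genes was smallest in the nucleus. Within same-numbered pairs of libraries, the family's median lay below that of all genes in 9 of 9 pairs. The difference averaged -0.25 ± 0.02 in the nucleus, -0.73 ± 0.22 in total RNA and -0.94 ± 0.12 in the cytoplasm (log2, SD over 3 pairs). For ZNF genes of other chromosomes the same differences averaged -0.59 ± 0.19, -0.80 ± 0.10 and -0.86 ± 0.40. For the other protein-coding genes of chromosome 19 they averaged -0.00 ± 0.06, 0.03 ± 0.16 and 0.10 ± 0.01.

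**Figure D2:**
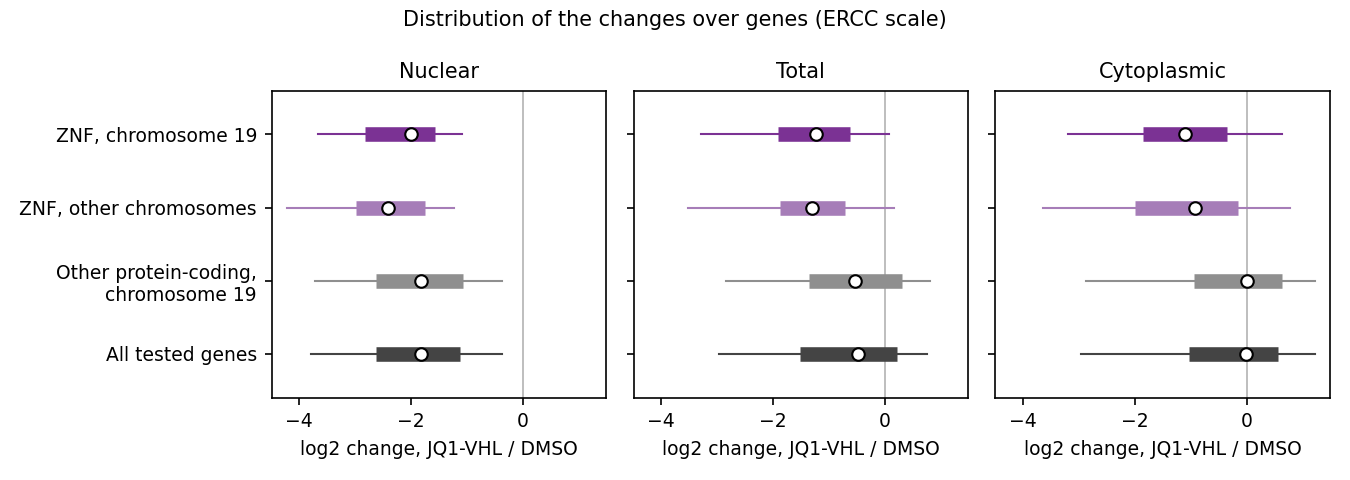
Log2 changes (JQ1-VHL over DMSO, x axis) in the 3 fractions are shown for 134 ZNF genes of chromosome 19, 143 of other chromosomes, 546 other protein-coding genes of chromosome 19 and all 10191 tested genes; circles are medians, thick bars run from the 25th to the 75th percentile and thin lines the 5th to the 95th percentile. Both ZNF rows lie left of the lower rows in total and cytoplasmic RNA, with cytoplasmic medians of -1.10 and -0.93 against 0.00 and -0.02.

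The family's genes were expressed at lower levels than most, and level went with the change. In DMSO total RNA the tested genes of the family had a median of 80.8 units and all tested genes a median of 172 units. Across all 9328 tested protein-coding genes, the Spearman correlation between mean units and the log2 change was 0.39 in the nucleus, 0.49 in total RNA and 0.41 in the cytoplasm, so genes with fewer units tended to the lower values. These points share libraries and counting noise. The part of expression level in the family's lower share was not tested.

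In the nucleus, 50 of the 134 genes were lower under JQ1-VHL and 0 were higher (limma on log2(units + 1), adjusted p under 0.05). That is 37.3% of the family, and of all tested genes 33.7% were called lower and 0.177% higher. In 108 genes, or 80.6%, all JQ1-VHL libraries lay below all DMSO libraries, and in 0 genes all lay above. Over all tested genes these shares were 71.2% and 0.353%. The nuclear calls are therefore near the general level of the fraction. After rescaling, in which each library is divided by the median ratio of its genes to their mean over libraries, the median of all genes moved to -0.01. On that scale 15 genes of the family were lower and 3 were higher, or 11.2% and 2.24%, against 12.6% and 18.2% of all tested genes. Groups without overlap then had JQ1-VHL below DMSO in 44 genes (32.8%, against 27.8% of all tested genes) and above it in 19 (14.2%, against 29.5%). By sign alone, 134 of 134 genes were below 0 on the ERCC scale and 84 after rescaling.

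ZNF444, a SCAN-domain zinc finger protein, had the lowest nuclear change of the family. It had 5.85, 4.52 and 0 units in JQ1-VHL nuclei, against 206, 114 and 73.8 units in DMSO nuclei. The groups did not overlap, and the log2 change was -5.18 ± 1.03 (SE, limma adjusted p = 0.00013). All 16 alternative settings kept this call, with log2 changes of -6.43 to -3.55. The log2 changes in the other fractions did not pass. ZNF444 averaged 33.6 ± 12.1 units in JQ1-VHL and 147 ± 102 units in DMSO total RNA (log2 change -1.94, adjusted p = 0.33). In cytoplasmic RNA it averaged 23.4 ± 12.8 units under JQ1-VHL and 67.9 ± 51.2 units under DMSO (log2 change -1.16, adjusted p = 0.83). ZNF444 overlaps another annotated gene, so its values are uncertain.

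The next lowest nuclear genes were ZNF615, ZNF507, ZNF549, ZNF175 and ZNF561. ZNF615 fell by 4.33 on the log2 scale (limma adjusted p = 0.0013), with 13.3, 5.17 and 0 units in JQ1-VHL nuclei, against 138, 62.3 and 80.9 units in DMSO nuclei. ZNF507 fell by 4.31 (adjusted p = 0.0019), with 11.7, 9.69 and 0 units in JQ1-VHL nuclei, against 213, 69.6 and 69.1 units in DMSO nuclei. In both genes every JQ1-VHL library lay far below the lowest DMSO library. ZNF175, known as a repressor of the HIV-1 promoter in macrophages, had 15.4, 14.9 and 0.950 units in JQ1-VHL nuclei, against 211, 94.3 and 97.8 units in DMSO nuclei (log2 change -3.98, limma adjusted p = 0.0055). ZNF549 changed by -4.03 and ZNF561 by -3.96 (limma adjusted p = 0.0069 and 0.0027). All 6 genes were also lower after rescaling, by 2.38 to 4.21 on the log2 scale.

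The called genes nearest to 0 were ZNF675, ZNF317, ZNF274, ZNF227, ZNF737 and ZNF30, with nuclear log2 changes of -2.20 to -2.55, and after rescaling none of these 6 was called. The nuclear count rested on single libraries: 2 genes of the family were called without JQ1-VHL nuclear replicate 3 and 2 without DMSO nuclear replicate 1, and 29 without DMSO nuclear replicate 2. After rescaling, the 15 lower genes were 6 without either of the first 2 libraries, 8 without DMSO nuclear replicate 2 and 6 without DMSO nuclear replicate 3.

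In total RNA, 4 genes were lower and 0 were higher on the ERCC scale, or 2.99% of the family, and of all tested genes 2.79% were lower and 0.245% higher. In 52 genes, or 38.8%, all JQ1-VHL libraries lay below all DMSO libraries, and in 0 genes above them, against 24.8% and 1.26% of all tested genes. After rescaling, 31 were lower and 1 was higher, or 23.1% and 0.746%, against 18.4% and 12.2% of all tested genes. Groups without overlap then had JQ1-VHL below DMSO in 66 genes (49.3%, against 34.3%) and above it in 2 (1.49%, against 25.4%). The 4 genes called on the ERCC scale were ZNF230 (log2 change -4.11 ± 1.14, limma adjusted p = 0.022), ZNF181 (-4.06 ± 1.17, 0.028), ZNF579 (-3.93 ± 1.16, 0.035) and ZNF114 (-3.51 ± 1.08, 0.045), and all 4 were also lower after rescaling. ZNF114 had 6.87, 1.20 and 9.60 units in JQ1-VHL total RNA, against 189, 40.7 and 33.5 units in DMSO total RNA. ZNF181 had 0, 4.81 and 0 units in JQ1-VHL total RNA, against 74.5, 14.4 and 22.1 units in DMSO total RNA. The groups of these genes did not overlap, but the JQ1-VHL values rest on few reads. With the batch number as a block, 10 genes were lower. Without JQ1-VHL replicate 3, DMSO replicate 1 or DMSO replicate 3, 0 were called, and 1 or 2 without any other library. After rescaling, leaving out a library left 13 to 29 lower genes.

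In cytoplasmic RNA, 3 genes were lower and 0 were higher, or 2.24% of the family, and of all tested genes 3.67% were lower and 0.226% higher. In 9 genes, or 6.72%, all JQ1-VHL libraries lay below all DMSO libraries, and in 2 genes, or 1.49%, above them, against 5.98% and 1.37% of all tested genes. After rescaling, 37 were lower and 3 were higher, or 27.6% and 2.24%, against 15.9% and 14.8% of all tested genes. Groups without overlap then had JQ1-VHL below DMSO in 43 genes (32.1%, against 17.9%) and above it in 3 (2.24%, against 18.8%). ZNF350, a KRAB repressor that binds BRCA1, had 0 reads in all 3 JQ1-VHL libraries, against 52.8, 17.1 and 11.0 units in DMSO libraries. It was called lower (limma adjusted p = 0.0078). Its DMSO mean was 4.78-fold a floor of 3 reads in each JQ1-VHL library, which averaged 5.64 units. This ratio of means leaves out the spread of the DMSO libraries. ZNF304, a KRAB protein linked to silencing of the INK4-ARF locus in colorectal cancer, also had 0 reads in the JQ1-VHL libraries (limma adjusted p = 0.012). It had 34.7, 6.63 and 27.5 units under DMSO. Its DMSO mean was 4.07-fold the floor, but DMSO replicate 2 lay near the floor. ZNF507 was called here as in the nucleus: it had 29.3, 0 and 2.79 units in JQ1-VHL cytoplasm, against 145, 40.9 and 308 units in DMSO cytoplasm (log2 change -4.67 ± 1.06, limma adjusted p = 0.0021). All 3 genes were lower after rescaling too. With the batch number as a block 11 genes were lower, and without DMSO cytoplasmic replicate 2, the library with the fewest units of its group, 20 were. Without DMSO replicate 1 or DMSO replicate 3 the count was 1, without JQ1-VHL replicate 1 it was 7, and without JQ1-VHL replicate 2 it was 5. After rescaling, leaving out a library left 27 to 42 lower genes.

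After rescaling, 4 genes were lower in all 3 fractions: ZNF114, ZNF155, ZNF211 and ZNF561. Of all tested genes 452, or 4.44%, were lower in all 3, so a count of 4 of 134 is no result about the family. The 4 genes were picked after their values were seen. ZNF155 had 23.9, 29.7 and 14.7 units in JQ1-VHL nuclei, against 352, 194 and 206 units in DMSO nuclei, and its rescaled log2 changes were -1.57 in the nucleus, -2.04 in total RNA and -1.25 in the cytoplasm (limma adjusted p = 0.0058, 0.0019 and 0.022). ZNF211 averaged 5.07 ± 3.34 units in JQ1-VHL nuclei and 65.1 ± 13.5 units in DMSO nuclei. Its cytoplasmic means were 2.33 ± 2.13 units under JQ1-VHL and 33.6 ± 28.2 units under DMSO.

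ZNF850 stood at the opposite end of the family in nuclear and total RNA. It had 102, 125 and 20.9 units in JQ1-VHL nuclei, against 187, 39.9 and 36.2 units in DMSO nuclei, so the groups overlapped and the log2 change was -0.00 ± 0.98. In the cytoplasm it had 92.1, 43.0 and 37.7 units under JQ1-VHL, against 33.0, 4.42 and 16.5 units under DMSO, and there the groups did not overlap. The cytoplasmic log2 change was 1.87 on the ERCC scale (limma adjusted p = 0.41). After rescaling it was higher in all 3 fractions, by 1.84 in the nucleus, 1.27 in total RNA and 1.94 in the cytoplasm (adjusted p = 0.0060, 0.043 and 0.0048). ZNF850 overlaps ZNF567, which lies on the opposite strand, and the strand that was counted is not given in the sources used here. ZNF567 had a nuclear log2 change of -1.74 (limma adjusted p = 0.16). The other genes that were higher after rescaling were ZNF814 (1.05) and ZNF83 (0.84) in the nucleus and ZNF45 (1.27) and ZNF701 (1.24) in the cytoplasm. ZNF850, ZNF814, ZNF45 and ZNF701 are named because of these values.

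**Figure D3:**
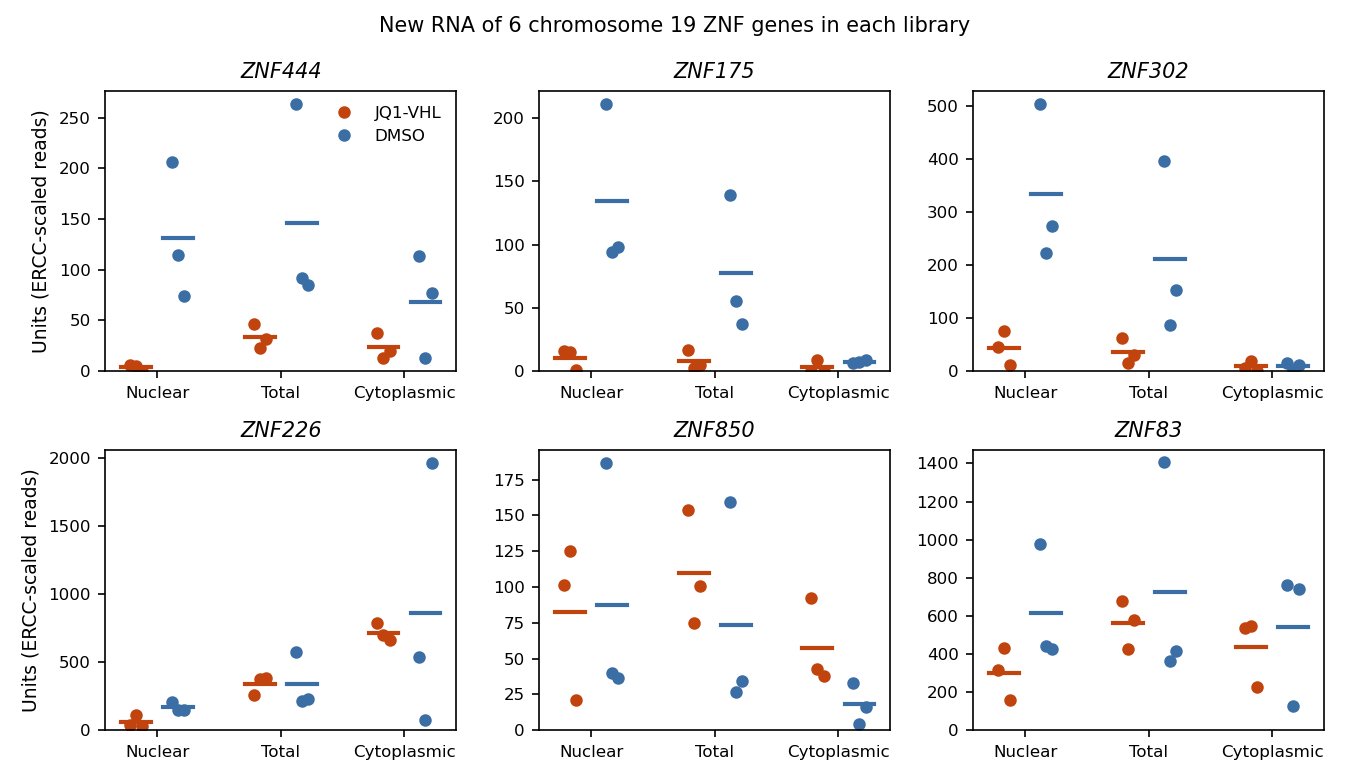
Units per library (y axes, ERCC-scaled T-to-C reads) are shown for 6 chromosome 19 ZNF genes in nuclear, total and cytoplasmic RNA; points are single libraries and bars are means of 3. ZNF444, ZNF175 and ZNF302 had lower nuclear values in all JQ1-VHL libraries than in any DMSO library, and the ZNF226 means were highest in the cytoplasm, while ZNF850 and the strongly expressed ZNF83 overlapped between treatments in the nucleus.

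ZNF83 and ZNF226 had the highest mean units of the family in total and cytoplasmic RNA. In nuclear RNA ZNF83 was followed by ZNF320, which had 162, 226 and 76.5 units in JQ1-VHL nuclei, against 485, 242 and 323 units in DMSO nuclei. The nuclear groups of ZNF320 did not overlap. ZNF83 averaged 560 ± 127 units in JQ1-VHL and 727 ± 590 units in DMSO total RNA. Its nuclear libraries held 315, 430 and 160 units under JQ1-VHL, against 979, 442 and 427 units under DMSO, and the groups overlapped. The log2 change was -1.03 on the ERCC scale (limma adjusted p = 0.28) and 0.84 after rescaling (adjusted p = 0.0057), so its sign depends on the scale. The intervals of ZNF83 had unlike values. Interval 7, the strongest, averaged 101 units in JQ1-VHL and 325 units in DMSO nuclei, and 248 units in JQ1-VHL and 446 units in DMSO total RNA. Interval 2 averaged 65.1 units in JQ1-VHL and 81.1 units in DMSO nuclei, and 126 units in JQ1-VHL and 80.1 units in DMSO total RNA. ZNF83 overlaps 3 other annotated genes, so its values are uncertain.

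Of the 12 tested genes with a studied role, 9 were lower in the nucleus on the ERCC scale and 0 were higher, and 3 of the 9 were also lower after rescaling. Of all tested genes 33.7% were lower on the ERCC scale and 12.6% after rescaling, and the 12 were listed with earlier results of these data known. ZNF274 directs SETDB1 to the 3′ ends of zinc finger genes. It had 41.5, 57.5 and 8.55 units in JQ1-VHL nuclei, against 314, 105 and 121 units in DMSO nuclei (log2 change -2.48, limma adjusted p = 0.041, and -0.66 after rescaling, 0.38). ZNF91, which silences SVA elements in primates, had 42.0, 58.1 and 23.8 units in JQ1-VHL nuclei, against 229, 74.7 and 101 units in DMSO nuclei (log2 change -1.60, limma adjusted p = 0.16). Both genes had lower values in every JQ1-VHL nuclear library than in any DMSO nuclear library, but ZNF91 did not pass the test. ZNF331, an imprinted gene, had a nuclear log2 change of -1.42 (adjusted p = 0.18). The third of the 12 that did not pass in the nucleus was ZNF350 (-1.77, adjusted p = 0.19).

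ZNF224, a repressor of the aldolase A gene, was lower in the nucleus (log2 change -3.12, limma adjusted p = 0.027), with 3.19, 6.46 and 5.23 units in JQ1-VHL nuclei, against 94.2, 50.5 and 24.9 units in DMSO nuclei. In total RNA its change of -3.56 missed the threshold (adjusted p = 0.058) and passed after rescaling (-3.13, adjusted p = 0.0066). ZNF649, a KRAB repressor of serum response and AP-1 reporters, was lower in the nucleus (-3.20, adjusted p = 0.022). In cytoplasmic RNA its change of -3.48 missed the threshold (adjusted p = 0.051) and passed after rescaling (-3.47, adjusted p = 0.0037). ZNF568, whose mouse counterpart represses a placental Igf2 promoter, changed by -2.78 in the nucleus (adjusted p = 0.021). It changed by -0.66 in total and -0.69 in cytoplasmic RNA (adjusted p = 0.89 and 0.90). ZNF382 (-2.96), ZNF808 (-2.57), whose loss causes pancreatic agenesis, and ZNF675 (-2.20), an inhibitor of TRAF6 signalling, were the other nuclear calls, with ZNF175 and ZNF444 given above. In total RNA 0 of the 12 passed on the ERCC scale and 3 were lower after rescaling (ZNF175, ZNF224 and ZNF675), and in cytoplasmic RNA 1 (ZNF350) and 2 (ZNF350 and ZNF649) were. Of all tested genes, 2.79% were lower in total RNA on the ERCC scale and 18.4% after rescaling, and in cytoplasmic RNA 3.67% and 15.9%.

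The genes stand in 9 runs of at least 5 annotated genes whose starts lie under 1 Mb apart (GENCODE 29, GRCh38), and their nuclear medians lay between -3.19 and -1.62. Calls per run stand beside the 33.7% of all tested genes that were lower in the nucleus. Run 4, from ZNF101 to ZNF254 (chr19:19668796-24129961), had a nuclear median of -1.73 over 23 tested genes, of which 4 were lower. Run 9, from ZNF628 to ZNF446 near the end of the long arm (chr19:55476332-58481230), had a median of -2.62 over 24 genes, of which 13 were lower. Run 9 lay below run 4 in all 3 nuclear pairs, by 0.78, 0.52 and 0.47 on the log2 scale, and in all 3 total RNA pairs, by 1.31, 1.01 and 0.86. In cytoplasmic RNA the pairs differed in sign, with run 9 minus run 4 at -0.22, -0.73 and 0.52. Run 7, from ZNF575 to ZNF296, had a nuclear median of -2.66 over 12 genes, of which 8 were lower. Run 8, from ZNF175 to ZNF331, had a median of -1.81 over 26 genes, of which 7 were lower, and run 6, from ZNF565 to ZNF573, -2.10 over 19 genes, of which 5 were lower. Run 5 around ZNF302 had the lowest nuclear median, -3.19, and 4 of its 4 tested genes were lower. Runs 4 and 9 were singled out after their values were seen.

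**Figure D4:**
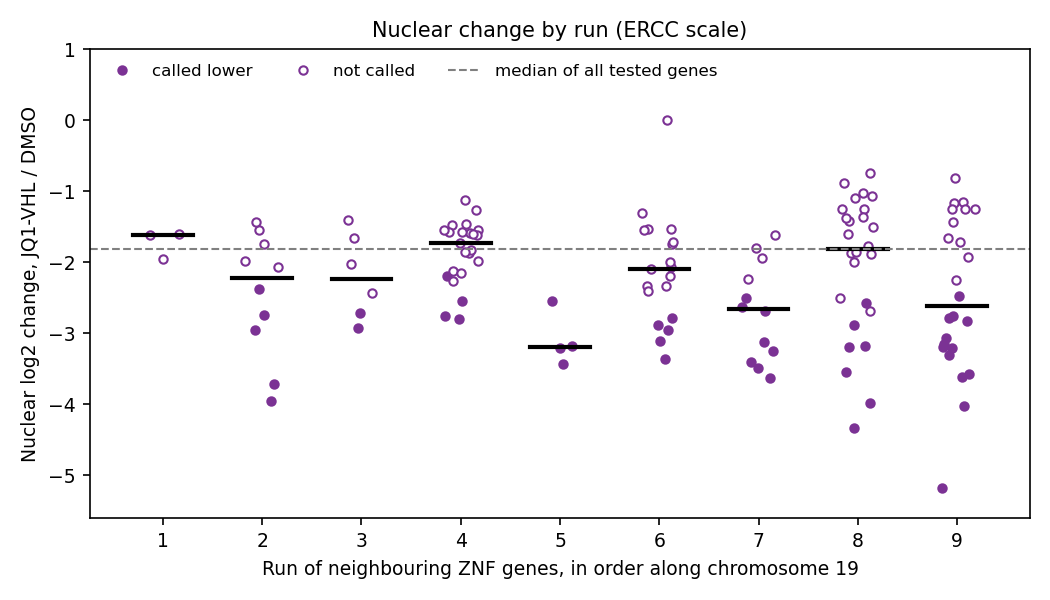
Nuclear log2 changes (JQ1-VHL over DMSO, y axis) of the tested ZNF genes are shown by run along chromosome 19 (x axis); filled points were called lower, open points were not called, black bars are run medians and the dashed line is the median of all tested genes (-1.82). Runs 5, 7 and 9 have medians of -3.19, -2.66 and -2.62, and run 4 has a median of -1.73.

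Runs differed in gene length, and length went with the change. The tested genes had a median length of 39.0 kb in run 4 and 17.3 kb in run 9, and the 4 genes of run 5 a median of 13.2 kb. Among the 134 genes the Spearman correlation between gene length and log2 change was 0.39 in the nucleus, 0.42 in total RNA and 0.24 in the cytoplasm. Over all 9328 tested protein-coding genes it was 0.24, 0.20 and 0.14. These correlations describe genes measured in the same libraries. The shortest 45 genes, of 4.08 to 21.1 kb, had a nuclear median of -2.76 and 26 calls, and the longest 45, of 33.9 to 162 kb, had a median of -1.60 and 6 calls. That is 57.8% and 13.3%, against 33.7% of all tested genes. Among all tested protein-coding genes in the same length ranges, 48.3% of 2687 and 27.9% of 3988 were lower, with medians of -2.25 and -1.68. In total RNA the medians of the same 2 sets were -1.75 and -0.68. The part of length in the differences between runs was not tested.

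**Figure D5:**
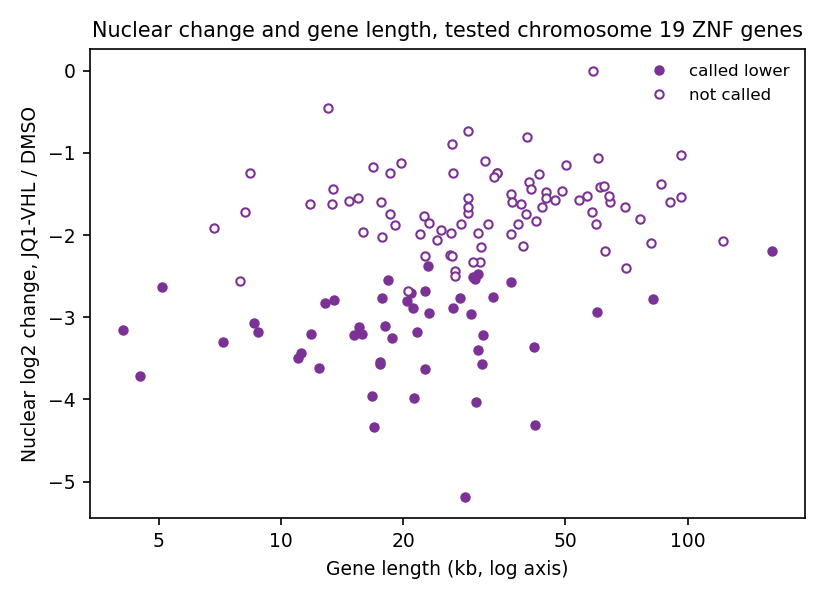
Nuclear log2 change (JQ1-VHL over DMSO, y axis) is plotted against gene length (x axis, kb, log scale) for the 134 tested chromosome 19 ZNF genes; filled points were called lower and open points were not called. Of the 50 calls, 26 lie among the shortest 45 genes and 6 among the longest 45 (57.8% and 13.3%, against 33.7% of all tested genes).

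The make-up of the protein went less clearly with the change. Translation of the annotated coding sequences found a median of 12 C2H2 motifs per tested gene, between 0 and 32, with the most in ZNF91. The Spearman correlation between motif number and log2 change was 0.10 in the nucleus, 0.13 in total RNA and 0.02 in the cytoplasm. A KRAB pattern was found in 105 genes, with a nuclear median of -1.99 and 38 calls, against -2.06 and 12 calls in the 29 genes without it. These are 36.2% and 41.4%, both near the 33.7% of all tested genes that were lower. Genes with an ETS motif in a promoter window had a nuclear median of -1.87 over 61 genes, and the 61 matched genes without it had -2.20. A gene body overlap with another annotated gene was present in 86 tested genes, with a nuclear median of -1.82, against -2.51 in the 48 without. No tested gene was 90% or more identical in protein to another gene of the family. At most 6.91% of a gene's 75-base transcript stretches were found in transcripts of any other annotated gene that does not overlap it.

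Genes that act with KRAB proteins had higher medians than the family. Expression level went with the change over all genes, and the part of level in this difference was not tested. Of 22 genes of the repressor complex and of heterochromatin, 21 were tested, and their median log2 change was -1.16 in the nucleus, 0.13 in total RNA and 0.44 in the cytoplasm, above the medians of all genes. In the nucleus SETDB1, DAXX, HDAC1 and SMARCAD1, or 4 of the 21, were lower and 0 were higher (33.7% of all tested genes were lower), and after rescaling 9 were higher and 1 was lower, or 42.9% and 4.76%, against 18.2% and 12.6% of all tested genes. TRIM28, the corepressor that KRAB domains bind, had 1325, 1655 and 429 units in JQ1-VHL nuclei, against 3067, 1472 and 1188 units in DMSO nuclei. Its groups overlapped on the ERCC scale (log2 change -0.84, limma adjusted p = 0.35), and it was higher after rescaling (1.03, 7.3e-05). SETDB1, the methyltransferase recruited by TRIM28, had 91.0, 118 and 17.6 units in JQ1-VHL nuclei, against 886, 324 and 328 units in DMSO nuclei. It was lower on both scales (log2 change -2.96, adjusted p = 0.0093, and -1.11 after rescaling, 0.022).

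In DMSO cells the family's nuclear over cytoplasmic ratio was close to that of the typical gene. The median nuclear over cytoplasmic log2 ratio of the 134 genes was 0.84, against 0.63 over all tested genes. Expression level went with this ratio, with a Spearman correlation of -0.55 across all 9328 tested protein-coding genes. Its part in the family's ratio was not tested. On the ERCC scale 13 genes were higher in the nucleus and 0 were lower, or 9.70% and 0%, against 14.7% and 5.92% of all tested genes. After rescaling 36 were higher and 4 were lower, or 26.9% and 2.99%, against 33.0% and 23.8%. In DMSO pairs the family's median ratio minus that of all genes was 0.25, -0.04 and 0.50 (log2), so its sign was not the same in all pairs. Without DMSO nuclear replicate 1 the ERCC-scale count was 2, and without either of the other DMSO nuclear libraries it was 7. ZNF302 had the highest ratio. It had 504, 223 and 273 units in DMSO nuclei and 14.9, 1.66 and 11.0 units in DMSO cytoplasm (log2 ratio 5.30 ± 1.02, limma adjusted p = 9.7e-05), and each of its 4 intervals averaged 66.1 to 118 units in the nucleus and 0.919 to 5.32 units in the cytoplasm. Next were ZNF254 (4.07), ZNF446 (3.98), ZNF175 (3.92), ZNF549 (3.64) and ZNF260 (3.61), and the lowest of the called ratios were those of ZNF224 (3.37), ZNF837 (3.02), ZNF577 (2.82), ZNF865 (2.74), ZNF274 (2.64) and ZNF266 (2.63). Among the 12 genes with a studied role the log2 ratios ran from -1.21 in ZNF568 to 3.92 in ZNF175, with 3 calls.

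Under JQ1-VHL the family's nuclear over cytoplasmic ratio lay above that of the typical gene. The median nuclear over cytoplasmic log2 ratio was -0.17 in the family and -0.82 over all tested genes. The difference was 0.68, 0.89 and 0.78 in the 3 pairs. Genes with fewer units tended to higher ratios: across all 9328 tested protein-coding genes the Spearman correlation between mean units and this ratio was -0.56. In JQ1-VHL cytoplasm the tested genes of the family had a median of 23.3 units, against 66.6 over all tested genes. The part of expression level in the family's higher ratio was not tested. On the ERCC scale 3 genes were higher in the nucleus and 8 were lower, or 2.24% and 5.97%, against 3.01% and 28.8% of all tested genes. After rescaling 65 were higher and 8 were lower, or 48.5% and 5.97%, against 38.7% and 26.0%. The higher genes on the ERCC scale were ZNF565 (2.90), ZNF302 (2.72) and ZNF682 (2.36). In JQ1-VHL cytoplasm they had 0, 0 and 6 reads (ZNF565), 3, 9 and 0 reads (ZNF302) and 18, 15 and 0 reads (ZNF682). All 3 calls were lost by edgeR on the ERCC scale, with a pseudocount of 5 and with the largest interval. ZNF226 had the lowest ratio, -3.73 ± 0.85 (limma adjusted p = 0.00014), with 39.4, 113 and 32.8 units in JQ1-VHL nuclei and 785, 701 and 659 units in JQ1-VHL cytoplasm. In DMSO cells ZNF226 had 203, 151 and 145 units in nuclei and 538, 72.9 and 1961 units in cytoplasm, so replicate 2 went the other way, and the log2 ratio of -1.37 was not called (limma adjusted p = 0.25). All 8 of its intervals averaged more in the cytoplasm than in the nucleus under JQ1-VHL, and intervals 4, 5 and 6 had near-equal cytoplasmic means of 106, 106 and 107 units, so a fragment may be counted in several intervals. The other lower genes were ZNF568 (-3.29), ZNF615 (-3.04), ZNF480 (-3.02), ZNF414 (-2.90), ZNF444 (-2.73), ZNF558 (-2.67) and ZNF45 (-2.64). Among the genes with a studied role other than ZNF350, which had 0 reads in JQ1-VHL cytoplasm, the ratios ran from -3.29 in ZNF568 to 1.91 in ZNF175, with 2 calls. The count of called genes was 5 without JQ1-VHL nuclear replicate 1 and 7 without JQ1-VHL cytoplasmic replicate 1 or 2.

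The nuclear and cytoplasmic drug effects were compared by an interaction term. On the ERCC scale 0 of the 134 genes differed by limma, as did 0 by edgeR, and 0% of all tested genes did, with 11 of the 134 at an unadjusted p under 0.05 by limma, against 15.3% of all tested genes. DESeq2 on the ERCC scale called 1 gene, and limma called 1 without DMSO cytoplasmic replicate 3. The lowest differences (nuclear minus cytoplasmic log2 change) were those of ZNF234 (-4.21), ZNF444 (-4.02) and ZNF45 (-3.89), and the highest those of ZNF565 (1.69), ZNF43 (1.50) and ZNF324 (1.06). ZNF350, ZNF304 and ZNF181, with 0 reads in every JQ1-VHL cytoplasmic library, are left out of this order, since their fitted differences depend on the pseudocount. ZNF45 had 11.7, 9.04 and 5.23 units in JQ1-VHL nuclei, against 101, 52.2 and 37.6 units in DMSO nuclei, but 73.3, 55.9 and 44.7 units in JQ1-VHL cytoplasm, against 29.7, 12.7 and 35.8 units in DMSO cytoplasm. Its nuclear groups and its cytoplasmic groups each did not overlap, in opposite directions, but the difference did not pass (limma adjusted p = 0.29). The genes with a studied role other than ZNF350 ran from -4.02 in ZNF444 to 0.28 in ZNF649. After rescaling, 3 genes had a higher nuclear than cytoplasmic change and 0 a lower one, or 2.24% and 0%, against 1.44% and 1.38% of all tested genes.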

How the data were processed

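The deposited signal is a T-to-C read count per interval, scaled by the authors with a factor for each library that the file's name ties to ERCC RNA. Tools listed in the submitters' processing notes are HTSeq, HISAT2, DESeq2, bcl2fastq and Trimmomatic 0.39. The builds listed there are hg19, GRCh37 and dm3, with no roles given. How T-to-C reads were called, which strand was counted and what an interval covers are not given in the sources used here. Each library's values were whole multiples of 1 step (100% within 0.01 of a read), which gave back the reads of each interval. Reads per gene are sums over its intervals, also for edgeR and DESeq2, so a read counted in several intervals would enter more than once. No molecular identifiers mark PCR copies, so a floor of 3 reads covers counting error only.

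The 98665 intervals, 777 of them of the 156 genes, were summed per Ensembl ID, and 12546 of 12755 IDs matched GENCODE 29 (GRCh38). Proteins were translated from its coding sequences. The KRAB and C2H2 patterns miss divergent copies. Genes with a mean of at least 10 units were tested with limma 3.58.1 (trend, robust) on log2(units + 1) over all 18 libraries in 6 group means, two-sided, with Benjamini-Hochberg adjustment at 0.05 over all 10191 genes. Log2 changes on this scale understate those of genes with few units. On the ERCC scale the genes of a library share most of its deviation, so calls carry more certainty than 3 libraries can give, and an exact permutation test of 3 against 3 cannot go below 0.1. Alternatives were rescaling, pseudocounts of 0.1 and 5, no filter, the largest interval, edgeR 4.0.16 and DESeq2 1.42.0 on the recovered reads, other member sets, the batch block and leaving out each library. The limma and edgeR TMM fits were also run on simulated counts scaled by library size. These lack the deviations between libraries on the ERCC scale, so they do not test the ERCC-scale calls.

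The members, lists and tests were chosen with earlier results of these data known. Named genes are, in each comparison, the 6 lowest and 6 highest calls (the 3 lowest and highest where none was called), 19 genes with a studied role (12 tested, 7 not analysed here) and the 5 genes highest in DMSO total RNA. Outside the drug comparisons these last sets are given by their range. The labels give a batch number equal to the replicate number, which pairs the libraries. Correlations of the deviations of same-numbered JQ1-VHL and DMSO libraries were 0.27, -0.14 and 0.29 in nuclear, 0.22, 0.08 and 0.16 in total, and 0.06, -0.05 and 0.02 in cytoplasmic RNA.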

Additional observations from a re-analysis of the deposited data

Results flagged for a closer look

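After rescaling, 3 genes had nuclear and cytoplasmic drug effects that differed by the interaction term (limma adjusted p under 0.05), and 0 did on the ERCC scale. ZNF350 differed by 4.18 (nuclear minus cytoplasmic log2 change, adjusted p = 0.036), with 5.32, 7.75 and 3.80 units in JQ1-VHL nuclei, against 38.5, 14.6 and 16.0 units in DMSO nuclei, and 0 reads in every JQ1-VHL cytoplasmic library. Against a group at 0 reads this difference depends on the pseudocount and is no bound. For the cytoplasm only the DMSO mean can be given, at 4.78-fold a floor of 3 reads per JQ1-VHL library. That ratio leaves out the spread of the DMSO libraries. ZNF100 differed by 1.70 and ZNF320 by 1.63 (adjusted p = 0.046 and 0.048). ZNF320 had 162, 226 and 76.5 units in JQ1-VHL nuclei, against 485, 242 and 323 units in DMSO nuclei, and 134, 77.4 and 39.1 units in JQ1-VHL cytoplasm, against 193, 61.3 and 330 units in DMSO cytoplasm. By edgeR with TMM scaling 1 gene differed. All 3 rescaled genes had the higher nuclear change. This count of higher genes was 0 without JQ1-VHL nuclear replicate 1 or 2, any DMSO nuclear library or DMSO cytoplasmic replicate 2. Without JQ1-VHL nuclear replicate 1 or DMSO cytoplasmic replicate 2, 1 gene had a lower nuclear change instead. The count of higher genes was 1 without DMSO cytoplasmic replicate 1 and 7 without JQ1-VHL cytoplasmic replicate 1. Without DMSO cytoplasmic replicate 3, 6 genes were higher and 1 was lower. Without JQ1-VHL nuclear replicate 3, 4 were higher and 2 were lower.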

How the results depend on the processing

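Counts of called genes moved with the scaling and with single libraries. Against 50 nuclear, 4 total and 3 cytoplasmic calls for the drug, rescaling gave 18, 32 and 40, edgeR with TMM 19, 31 and 34, and DESeq2 with its own size factors 21, 48 and 44. On the ERCC scale edgeR gave 33 nuclear and 1 total calls, and DESeq2 gave 15 total and 8 cytoplasmic calls. For the nuclear over cytoplasmic ratio, with 11 calls under JQ1-VHL and 13 under DMSO, these scalings gave 73 and 40 (rescaled), 67 and 46 (TMM) and 77 and 54 (DESeq2), and edgeR on the ERCC scale gave 7 under DMSO. The interaction, with 0 calls, had 3, 1 and 16 under the same scalings and 1 by DESeq2 on the ERCC scale. A pseudocount of 0.1 gave 30 nuclear, 0 total and 8 cytoplasmic calls and 5 for the DMSO ratio. A pseudocount of 5 gave 8 total calls and 7 for the JQ1-VHL ratio. Without a filter there were 9 total and 7 cytoplasmic calls, and with the largest interval 1 cytoplasmic call. That call was another gene than ZNF507, ZNF350 and ZNF304, which all lost theirs in this setting. Among the 48 genes that overlap no other gene there were 24 nuclear calls and 1 cytoplasmic call, or 50% and 2.08%. Of all tested genes 33.7% and 3.67% were lower in these comparisons. The same 48 genes had 5 calls for the JQ1-VHL ratio and 6 for the DMSO ratio. Leaving out a library gave 2 to 57 nuclear (2 without JQ1-VHL nuclear replicate 3 or DMSO nuclear replicate 1), 0 to 2 total and 1 to 20 cytoplasmic calls, 0 to 1 for the interaction, 5 to 10 for the JQ1-VHL ratio and 2 to 16 for the DMSO ratio. The batch block gave 10 total and 11 cytoplasmic calls and moved no other count by over 1.5 times. The cause of these shifts was not tested.

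The family's median log2 change minus that of all tested genes was -0.70 to -0.13 in the nucleus, -0.93 to -0.66 in total RNA and -1.29 to -0.79 in the cytoplasm over all alternatives. For the nuclear over cytoplasmic ratio it was 0.41 to 0.81 under JQ1-VHL and -0.06 to 0.46 under DMSO.

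Of 91 values of named genes, 14 changed sign under some alternative, and 0 of the 47 that were called did. Called values are large ones, so a change of sign was unlikely from the start. The calls themselves were often lost. Of 17 named nuclear calls, 1 was kept without JQ1-VHL nuclear replicate 3, 2 without DMSO nuclear replicate 1 and 7 after rescaling. All 17 were kept without JQ1-VHL nuclear replicate 2. In the nucleus, rescaling, TMM and DESeq2 size factors gave log2 changes of 0.24, 0.05 and 0.23 for ZNF91, 0.43, 0.25 and 0.43 for ZNF331, and 0.84, 0.67 and 0.85 for ZNF83. They gave 0.23, 0.09 and 0.28 for ZNF226 and 0.27, 0.10 and 0.28 for ZNF431. In total RNA ZNF83 had 0.19, 0.43 and 0.20. In cytoplasmic RNA ZNF83 had 0.03, 0.05 and 0.01, and ZNF382 0.28, 0.89 and 0.93. On the ERCC scale edgeR and DESeq2 gave -0.58 and -0.57 for ZNF91, 0.20 and 0.20 for ZNF274, -0.17 and -0.17 for ZNF331, 0.24 and 0.21 for ZNF382 and -0.26 and -0.26 for ZNF226. TMM gave 0.02 for ZNF274, and the largest interval -0.39 for ZNF91. Leaving out a library gave ranges across 0 in total RNA for ZNF83 (-0.47 to 0.51) and ZNF226 (-0.12 to 0.59). In cytoplasmic RNA it did so for ZNF91 (-0.81 to 1.14), ZNF274 (-0.84 to 0.69), ZNF331 (-0.79 to 0.83), ZNF382 (-1.07 to 1.02), ZNF675 (-1.56 to 0.07), ZNF83 (-0.88 to 0.40) and ZNF226 (-0.53 to 1.84).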
